A study of Arabidopsis thaliana with 6 samples.

Results

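The 8 genes described here are ATG3 and the 7 ATG8 genes ATG8B, ATG8C, ATG8D, ATG8E, ATG8F, ATG8G and ATG8H of Arabidopsis thaliana. They were chosen by name: a gene entered when the array annotation gave its probe set 1 gene and a symbol of ATG followed directly by a digit. That rule took 8 of the 13286 genes named in the annotation. Each of the 8 had 1 probe set, the group of short oligonucleotides that together measure 1 transcript.

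The RNA came from root protoplasts, which are cells freed of their walls, and it was measured on 6 ATH1 arrays. Every protoplast sample came from roots given nitrate, was kept in nitrate, and was transfected with a plasmid for HRS1 (AtNIGT1), a transcription factor, joined to the glucocorticoid receptor and driven by the CaMV35S promoter. Every sample also received 35 µM cycloheximide (CHX), a blocker of translation. The 3 +DEX samples were given 10 µM dexamethasone (DEX), which lets the fusion protein into the nucleus, and the 3 −DEX samples were not. The plasmid was therefore given to both groups, with the fusion driven by a strong viral promoter and not by the gene's own. The level of the fusion protein is not measured in these data. Cells were sorted by red fluorescent protein, and the RNA was amplified before labelling. The labels give no plant line and do not say whether replicates are separate cultures. The p-values therefore cover the spread of these 6 samples, part of which may be technical.

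Autophagy is the pathway by which a cell encloses part of its own cytoplasm in a double membrane and delivers it to the vacuole for breakdown. ATG8 is a small ubiquitin-like protein that becomes attached to a lipid, phosphatidylethanolamine, in the growing membrane. ATG4 trims the end of most ATG8 proteins, ATG7 activates them and ATG3 passes them to the lipid. In plants the pathway is known for recycling nutrients under nitrogen and carbon starvation and for clearing damaged proteins after heat and other stress. Plants carry several ATG8 genes, where yeast has a single one.

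The deposited values were linear intensities, and they were compared on a log2 scale after the arrays had been brought to the same median. The deposited medians ran from 79.1 to 92.9 on the +DEX arrays and from 66.3 to 87.7 on the −DEX arrays. One library differed from the rest: −DEX replicate 1 had a mean Spearman correlation of 0.708 with the other arrays, against 0.777 to 0.822 for the remaining 5 arrays. The tissue could not be checked against its markers: of 14 root cell type genes 2 were measured, EXPA7 and AT1G62500, and neither lay above background on any array. Of 6 leaf genes 0 were measured. Here and below, measured means that a probe set was named for that 1 gene in the annotation, as 13436 of the 22746 probe sets were. Whether genes not measured in this sense have probe sets without such a name was not checked. With 3 arrays a group, precision was limited, and the standard errors of the 8 log2 differences had a median of 0.49.

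All 8 genes were detected on all 6 arrays. Detected means that the value lay above the 95th percentile of the array's 27 Bacillus control probe sets. In comparison, 33.4% of all 22746 probe sets and 29.6% of the named genes passed this limit on all 6 arrays. The narrowest margin was that of ATG8C on the array of −DEX replicate 1, which lay 1.5 log2 units above the limit. ATG8F lay at least 7.28 log2 units above the limit on every array.

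The comparison of +DEX with −DEX asks whether letting HRS1 into the nucleus, with translation blocked, changes the transcripts of the 8 genes. No sample received DEX without the HRS1 plasmid, so an effect of DEX itself cannot be told apart from that of nuclear HRS1. None of the 8 passed the threshold in either direction. The test was limma over all probe sets, two-sided, with Benjamini-Hochberg adjustment at 0.05, and it called 0.119% of all probe sets, all of them lower with DEX. The adjusted p of the 8 genes ran from 0.80 to 0.96, and 0 of the 8 had an unadjusted p under 0.05, which 6.6% of all probe sets did. The mean was higher with DEX for 6 of the 8 genes and lower for 2, and the 8 differences had a median of 0.24 on the log2 scale, beside a median of −0.10 over all probe sets. Without −DEX replicate 1 the median of the 8 was 0.035, and that of all probe sets −0.098. In bulk RNA of this kind, fewer cells of a type and less RNA per cell cannot be told apart.

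**Figure D1:**
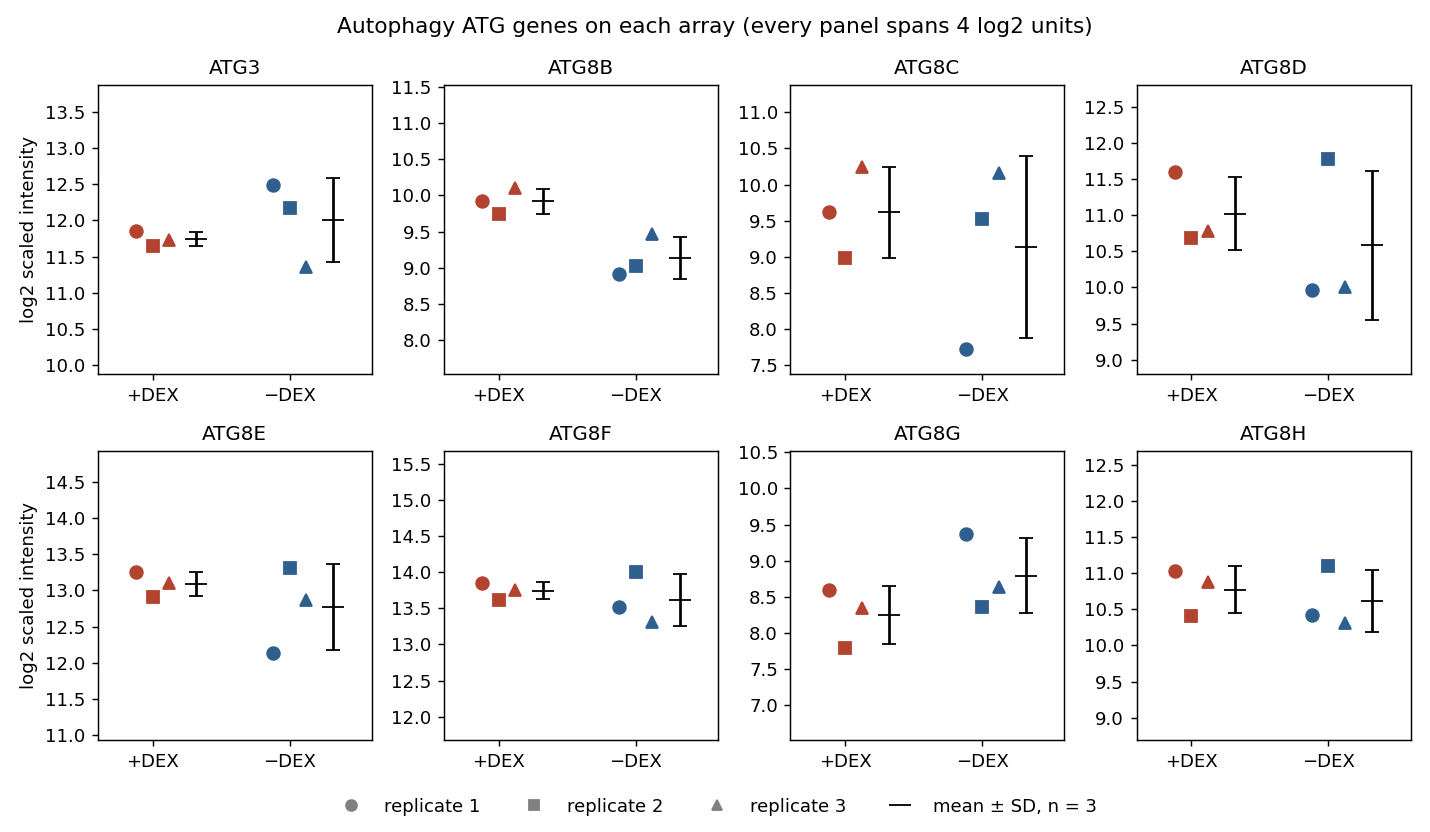
Log2 scaled intensity of each of the 8 genes on each array, with the +DEX arrays in red at the left and the −DEX arrays in blue at the right of each panel. Symbols mark replicate numbers, and bars are mean ± SD over 3 arrays. Every panel spans the same number of log2 units, centred on the mean of its own gene, so heights do not compare between panels. The groups overlap in every panel except that of ATG8B, where the +DEX arrays lie between 9.75 and 10.10 and the −DEX arrays between 8.92 and 9.47.

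ATG3, the E2-like enzyme that hands ATG8 to the lipid, had log2 values of 11.85, 11.65 and 11.73 on the +DEX arrays, against 12.49, 12.18 and 11.35 on the −DEX arrays. The +DEX values lay close together and inside the range of the −DEX values. The difference was −0.26 ± 0.41 (log2, SE; 95% interval −1.14 to 0.62; limma adjusted p = 0.92). Its sign was not stable, since quantile normalization gave 0.049.

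After the arrays had been brought to the same median, ATG8B was the gene whose groups did not overlap. Its log2 values were 9.92, 9.75 and 10.10 on the +DEX arrays, against 8.92, 9.02 and 9.47 on the −DEX arrays. In deposited intensity these were 958, 999.7 and 1163 on the +DEX arrays, against 434, 429.6 and 778 on the −DEX arrays. All 3 +DEX arrays were higher than all 3 −DEX arrays. The mean was 9.92 ± 0.17 with DEX and 9.13 ± 0.29 without (SD, n = 3 each). The difference of 0.79 ± 0.53, or 1.73-fold, did not pass the test (95% interval −0.34 to 1.91; limma adjusted p = 0.80). Groups without overlap occurred in 12.5% of all probe sets and in 13.5% of those detected on all 6 arrays, and in the direction of ATG8B in 4.99% of all probe sets. A count of 1 gene among 8 is close to the share of probe sets without overlap in either direction. These counts are from the scaled values. In the values as deposited the groups of ATG8E and ATG8F did not overlap either, and no such share was counted there. With single arrays left out the difference of ATG8B ran from 0.68 to 0.95, and the lowest limma adjusted p under any alternative was 0.54.

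ATG8C and ATG8D had the widest spread among the −DEX arrays. The values of ATG8C were 9.62, 8.99 and 10.24 on the +DEX arrays, against 7.73, 9.53 and 10.16 on the −DEX arrays. The low value was that of −DEX replicate 1, and the other −DEX values lay inside the +DEX range. The difference of ATG8C was 0.48 ± 0.68 (limma adjusted p = 0.91), and it became −0.23 without −DEX replicate 1. ATG8D had 11.60, 10.68 and 10.79 on the +DEX arrays, against 9.96, 11.77 and 10.01 on the −DEX arrays. In these scaled values −DEX replicate 2 was the highest array of all and the other −DEX arrays were the lowest. In the values as deposited +DEX replicate 1 was the highest, at 3069 against 2897 on −DEX replicate 2. The difference of ATG8D was 0.44 ± 0.55 (limma adjusted p = 0.89). Without −DEX replicate 2 it was 1.03, without −DEX replicate 1 it was 0.13 and without +DEX replicate 1 it was 0.15.

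ATG8E and ATG8F had the smallest standard errors in the fit with a variance trend. Without the trend the standard error was 0.634 for ATG8E and 0.599 for ATG8F, and that of ATG8B was the smallest of the 8, at 0.595. ATG8E had 13.25, 12.91 and 13.11 on the +DEX arrays, against 12.14, 13.31 and 12.86 on the −DEX arrays. Its difference was 0.32 ± 0.37 (95% interval −0.48 to 1.12; limma adjusted p = 0.88). Without −DEX replicate 1, its lowest array, the difference was 0.0051. ATG8F had 13.85, 13.62 and 13.75 on the +DEX arrays, against 13.52, 14.01 and 13.32 on the −DEX arrays. These scaled +DEX values of ATG8F again lay inside the range of the −DEX values. In the values as deposited the groups did not overlap for either gene. The share of all probe sets without overlap was not counted in those values, where the median difference of all probe sets was 0.090. ATG8E had 9640, 8959 and 9397 with DEX, against 4048, 8414 and 8178 without. ATG8F had 14651, 14621 and 14686 with DEX, against 10536, 13656 and 11203 without. The difference of ATG8F in the scaled values was 0.13 ± 0.32 (limma adjusted p = 0.95), and it became −0.020 without −DEX replicate 3. Quantile normalization gave a larger difference of 0.49 ± 0.23, with an unadjusted limma p of 0.048 and an adjusted p of 0.75. In the fit with the variance trend, the 95% interval of ATG8F, −0.55 to 0.81, was the 1 interval of the 8 that lay wholly within a change of 2-fold in either direction. Such a narrow interval was found for 5.57% of the probe sets detected on all 6 arrays.

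ATG8G was the ATG8 gene with a negative difference. It had 8.60, 7.80 and 8.35 on the +DEX arrays, against 9.37, 8.37 and 8.64 on the −DEX arrays. The groups overlapped, with −DEX replicate 1 the highest array and +DEX replicate 2 the lowest. The difference was −0.54 ± 0.64 (95% interval −1.92 to 0.84; limma adjusted p = 0.89), and −0.25 without −DEX replicate 1. ATG8H belongs to the ATG8 proteins that end in the glycine used for attachment and so need no trimming by ATG4. It had 11.03, 10.40 and 10.88 on the +DEX arrays, against 10.43, 11.10 and 10.31 on the −DEX arrays. Its difference was 0.16 ± 0.46 (limma adjusted p = 0.96), and 0.0047 without −DEX replicate 3.

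The family holds a further pair of genes that the annotation lists under older symbols. APG8A, also called ATG8A, had 9.14, 10.79 and 10.91 on the +DEX arrays, against 8.95, 11.33 and 10.37 on the −DEX arrays, a difference of 0.061 ± 0.66 (limma adjusted p = 0.99). APG8H, also called ATG8I, had 10.96, 9.87 and 9.62 on the +DEX arrays, against 7.88, 10.23 and 10.19 on the −DEX arrays, a difference of 0.71 ± 0.68 (limma adjusted p = 0.85). Both sets of values overlapped between the groups, and replicate 1 was the lowest −DEX array for each. With them, 9 ATG8 genes were measured and all 9 were detected on all 6 arrays. The mean was higher with DEX for 8 of the 9 and lower for 1, and the median difference was 0.32, while 46.1% of all probe sets had a positive difference. Without −DEX replicate 1, 5 of the 9 were positive and the median was 0.0051. None of the 9 passed the test. The coding sequences of ATG8 genes are similar, and whether a probe set also picks up another family member was not tested.

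**Figure D2:**
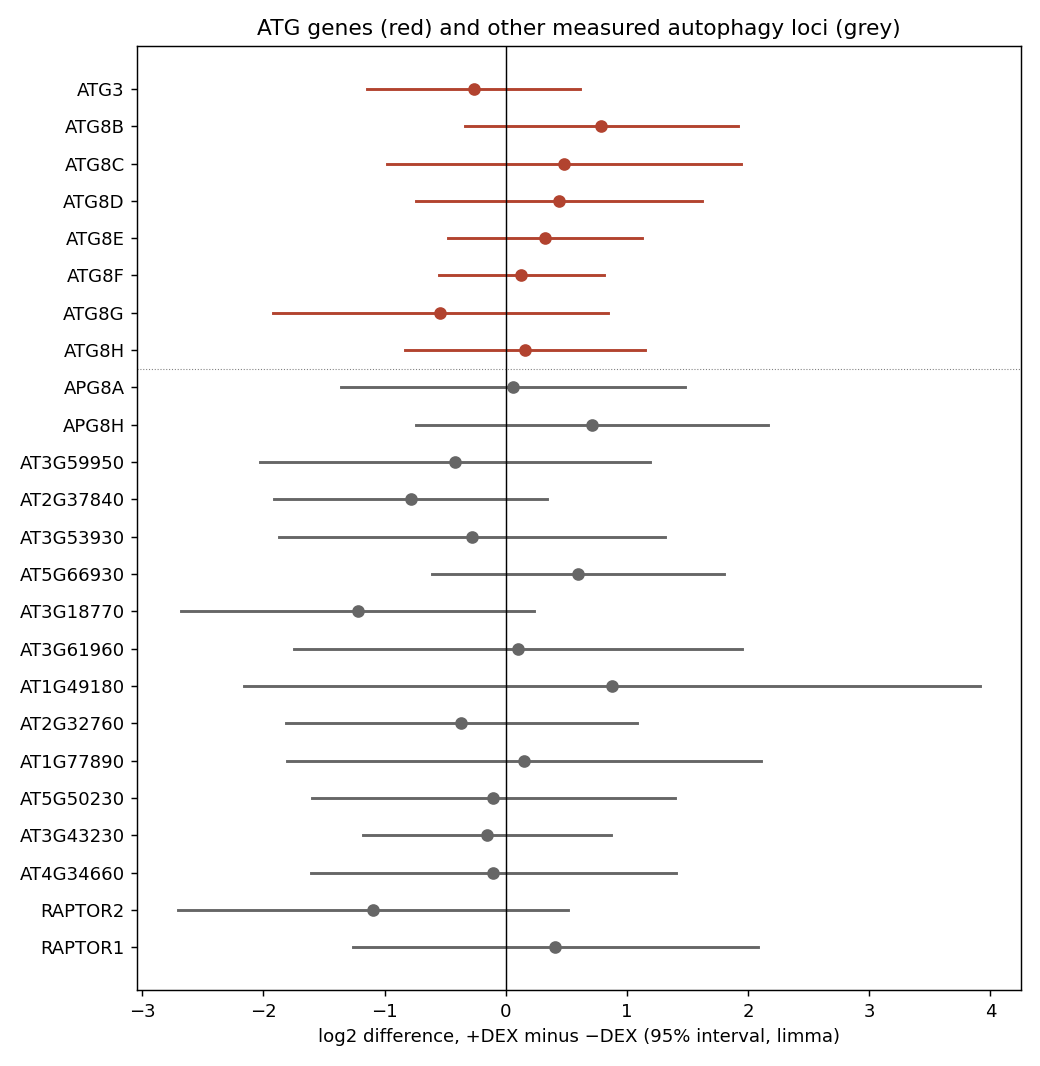
Log2 difference between +DEX and −DEX arrays (points) with its 95% interval from limma (lines), for the 8 ATG genes in red and 16 other autophagy loci in grey. Every interval crosses 0, and the intervals of the 8 genes lie between −1.92 and 1.94.

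The intervals of the 8 genes can be set against the changes that these arrays did call. The smallest fall among the 27 called probe sets was −2.19 on the log2 scale, or 4.57-fold. That set of calls is itself not stable: 0 probe sets were called without the variance trend, with values floored at a log2 of 5, or without −DEX replicate 2. In the fit of all 6 arrays, the 95% intervals of all 8 genes ended above the smallest called fall. The lowest end was that of ATG8G, at −1.92. Intervals ending above that fall were found for 82.7% of the probe sets detected on all 6 arrays. Upper ends reached 1.94, for ATG8C. Intervals with single arrays left out were not compared in this way, and ATG8G was −0.75 ± 0.68 without −DEX replicate 2. Changes smaller than the called falls, such as the 1.73-fold of ATG8B, could not be told from no change. Among the called probe sets were small heat shock protein AT1G53540, with a difference of −2.32 ± 0.34 (limma adjusted p = 0.012), and AT5G48570, a peptidyl-prolyl isomerase, with −4.56 ± 0.48 (limma adjusted p = 0.0038).

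**Figure D3:**
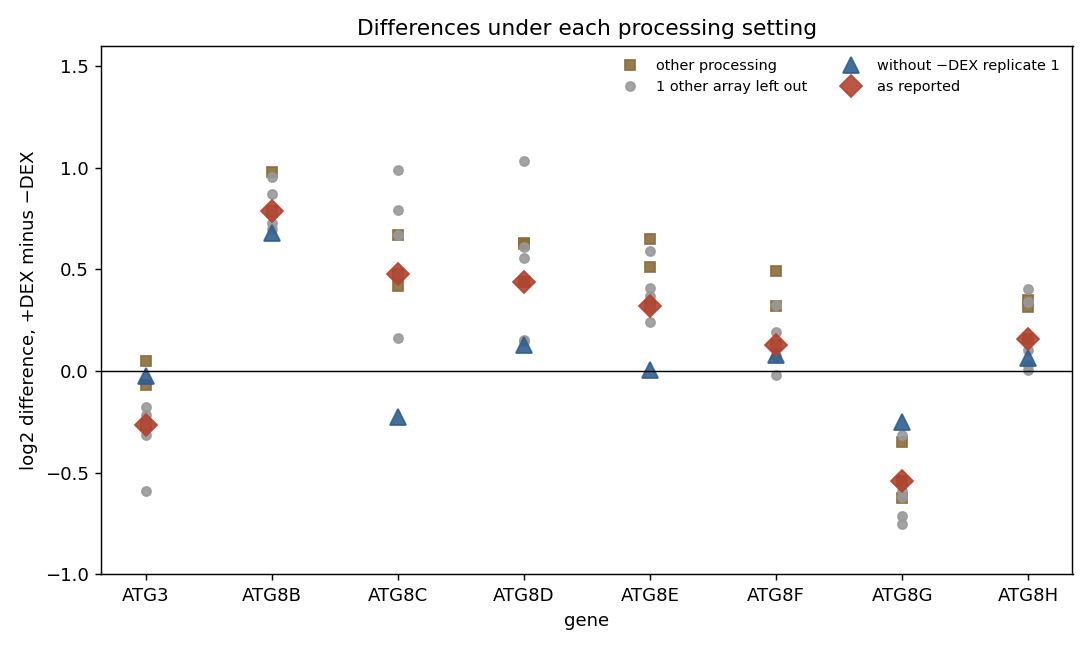
Log2 difference between +DEX and −DEX arrays for each of the 8 genes as reported (red diamonds), without −DEX replicate 1 (blue triangles), with another single array left out (grey circles) and under other processing (brown squares). ATG8B stays between 0.68 and 0.98 and ATG8G between −0.75 and −0.25, while ATG8C turns to −0.23 without −DEX replicate 1.

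Across the 6 arrays the genes did not vary as 1 group. In the scaled values ATG8D, ATG8F and ATG8H were highest on −DEX replicate 2 and next highest on +DEX replicate 1. In the values as deposited each of them was lower on −DEX replicate 2 than on +DEX replicate 1. ATG8D had 2897 against 3069, ATG8F 13656 against 14651 and ATG8H 1827 against 2068. The array of −DEX replicate 2 had the lowest deposited median, 66.3. Their pairwise Pearson correlations over 6 arrays were 0.94 for ATG8D with ATG8F, 0.94 for ATG8F with ATG8H and 0.91 for ATG8D with ATG8H. A correlation above 0.9 with ATG8F was found for 1.27% of the 3927 other named genes detected on all 6 arrays. In the values as deposited the 3 correlations ran from 0.86 to 0.89, and after quantile normalization from 0.64 to 0.85. Over 5 arrays they ran from 0.91 to 0.96 without −DEX replicate 1 and from 0.87 to 0.91 without −DEX replicate 2. The 3 genes were picked for their high correlations on these same arrays, so these values are no independent support for a group. Nor did the 3 genes stand apart without −DEX replicate 1. ATG8E then correlated with ATG8D at 0.95, with ATG8F at 0.94 and with ATG8H at 0.99.

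Several other relations among the genes changed when −DEX replicate 1 was left out. In the scaled values it was the highest array for ATG3 and ATG8G (r = 0.58 over 6 arrays, −0.067 without it) and the lowest for ATG8B, ATG8C, ATG8D and ATG8E. ATG3 had its most negative correlation with ATG8C, at −0.76, which was −0.33 without that array, and ATG8G with ATG8E, at −0.67, which was 0.29 without it. The correlation of ATG3 with ATG8F was 0.37 over 6 arrays and 0.97 over the 5 without −DEX replicate 1. With ATG8D it was 0.13 over 6 arrays and 0.95 without that array, and with ATG8E −0.43 over 6 arrays and 0.91 without it. With ATG8H it was 0.27 over 6 arrays and 0.88 without that array. Over the 28 pairs among the 8 genes the median correlation was 0.23 and 19 were positive, while without −DEX replicate 1 the median was 0.13 and 16 were positive. These are descriptions over few arrays that span both groups.

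**Figure D4:**
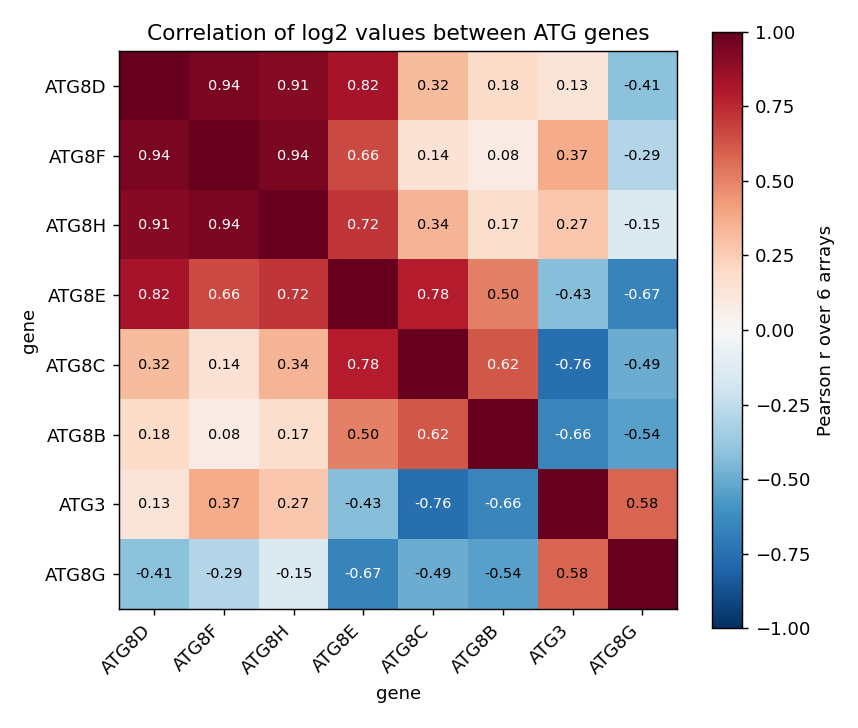
Pearson correlation of log2 values over 6 arrays for each pair of the 8 genes, with red for positive and blue for negative values. ATG8D, ATG8F and ATG8H form the block at the top left with values from 0.91 to 0.94, and ATG3 and ATG8G at the bottom right correlate negatively with ATG8E, ATG8C and ATG8B. Several of these values rest on −DEX replicate 1, such as −0.43 for ATG3 with ATG8E, which is 0.91 without it.

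The named genes most like the pair of ATG genes with the highest mean values were sought among the same 3927. Genes picked in this way have high correlations by selection. For ATG8F they were AT5G44990 (Pearson r = 0.98 over 6 arrays), AT1G21530 (r = 0.98) and AT5G04920 (r = 0.97), which the gene table also lists as VPS36, a subunit of the machinery that sorts cargo into vesicles inside endosomes. Like ATG8F, these genes were highest on −DEX replicate 2 in the scaled values, at 10.25, 9.76 and 9.09 in the same order. Their correlations without that array or under other scalings were not computed. For ATG8E they were AT5G48430 (r = 0.997), the plastid gene psbE (r = 0.99), which encodes a subunit of photosystem II, and AT5G06370 (r = 0.99). Like ATG8E, AT5G48430, psbE and AT5G06370 had −DEX replicate 1 as their lowest array, at 11.45 for AT5G48430, 7.28 for psbE and 7.52 for AT5G06370. Without that array the correlations with ATG8E were 0.98, 0.94 and 0.95 in the same order of genes. A correlation above 0.9 was found for 168 of the 3927 genes (4.28%) with ATG8E, the highest such share of the 8 ATG genes, and the lowest was 1.07% with ATG8H.

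The rest of the autophagy pathway was followed through 61 loci in 7 lists recalled from general knowledge, of which 24 were measured, the 8 ATG genes among them. Of these 24, 23 were detected on all 6 arrays. None of the other 16 passed the test, and 0 of the 16 had an unadjusted limma p under 0.05. Their differences were negative for 9 and positive for 7, with a median of −0.10, the same as over all probe sets. Coverage was uneven: 11 of 12 loci of ATG8 and its processing were measured, 6 of 8 of the ATG1 kinase complex, 2 of 6 of the phosphatidylinositol 3-kinase complex, 1 of 6 of the ATG12 conjugation pathway and 0 of 10 of the list of ATG9, ATG2 and ATG18. Of the receptors and adaptors 2 of 13 were measured, and of the TOR and SnRK1 regulators 2 of 6. This coverage is that of the naming step, and the remaining loci may have probe sets that were not named.

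The ATG1 kinase complex starts autophagosome formation. Of the 6 loci measured from its list 3 had a negative and 3 a positive difference. AT2G37840 had 9.95, 9.66 and 10.83 on the +DEX arrays, against 11.27, 11.41 and 10.12 on the −DEX arrays, which overlapped (difference −0.78 ± 0.53; limma adjusted p = 0.80). AT3G53930 had 8.57, 9.09 and 10.62 on the +DEX arrays, against 10.91, 8.17 and 10.04 on the −DEX arrays, which also overlapped (difference −0.28 ± 0.74; limma adjusted p = 0.96). Among the 16 loci 2 had groups without overlap, both from this list, and they are named after their values were seen. That count is no larger than the 12.5% of all probe sets without overlap would give. AT5G66930, listed as ATG101, had 9.70, 9.01 and 9.61 on the +DEX arrays, against 8.91, 8.75 and 8.88 on the −DEX arrays (difference 0.59 ± 0.56; limma adjusted p = 0.85). AT3G18770 had 8.52, 7.22 and 7.89 on the +DEX arrays, against 8.83, 9.87 and 8.60 on the −DEX arrays (difference −1.22 ± 0.68; limma adjusted p = 0.77). The differences of these 2 loci had opposite signs and neither passed the test.

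The 2 measured loci of the TOR list were both RAPTOR genes, whose proteins bring substrates to the TOR kinase, a repressor of autophagy. RAPTOR2 had 10.01, 7.88 and 9.20 on the +DEX arrays, against 10.36, 11.43 and 8.59 on the −DEX arrays (difference −1.10 ± 0.75; limma adjusted p = 0.80). RAPTOR1 had 7.11, 7.996 and 8.48 on the +DEX arrays, against 6.70, 7.72 and 7.93 on the −DEX arrays (difference 0.41 ± 0.78; limma adjusted p = 0.94). The groups of both genes overlapped. The remaining loci of the pathway had differences between −0.42 for AT3G59950 and 0.88 for AT1G49180. AT1G49180 was the 1 locus of the 24 that was not above background throughout, with 2 of 3 −DEX arrays above it.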

How the data were processed

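The authors' deposited table holds 1 linear intensity per probe set and ATH1 array, with a 2% trimmed mean of 500 on every array. How probes were summarised is not stated in these sources. TRIzol extraction and a labelling kit that primes at the 3′ end are recorded in the labels' protocols. Arrays were brought to the same median, a floor of 1 was set before log2, and, leaving out 64 controls of 22810 probe sets, 22746 were tested with limma (version 3.58.1, R 4.3.3): lmFit on the group, eBayes with a variance trend, and a threshold of 0.05 after Benjamini-Hochberg adjustment. The fit was run on simulated independent values with falls planted in bright probe sets. That run does not bear on the stability of the calls in these data. Probe sets were named through the platform annotation when it gave 1 gene (13436 probe sets), matched to TAIR10.1 locus tags. No sequences are printed. Planned for naming were the ATG genes and up to 2 loci of highest mean per list. The plan also took the 3 genes most correlated with each of the 2 ATG genes of highest mean. AT5G66930, AT3G18770, AT1G49180 and AT3G59950 were named beyond that plan, picked by their values. No values are printed for loci of the phosphatidylinositol 3-kinase, ATG12 and receptor lists. The members and lists were chosen with earlier results of these data known. Alternatives covered the replicate block, scaling, a filter, the variance model, a floor and each array left out.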

Additional observations from a re-analysis of the deposited data

How the results depend on the processing

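None of the 8 ATG genes passed the threshold under any of the 12 alternatives, and the median of the 8 differences stayed positive, between 0.035 (without −DEX replicate 1) and 0.50 (without −DEX replicate 2). The count over all 8 genes in each direction was 0 throughout, also with single arrays left out. Signs turned for ATG3 (0.049 after quantile normalization), ATG8C (−0.23 without −DEX replicate 1, range −0.23 to 0.99 with single arrays left out) and ATG8F (−0.020 without −DEX replicate 3, range −0.020 to 0.32, and 0.49 after quantile normalization with an unadjusted limma p of 0.048). ATG8B had an unadjusted limma p of 0.013 when values were floored at a log2 of 5 (adjusted p = 0.77). The median of the 16 other autophagy loci turned to 0.091 as deposited and ran from −0.52 to 0.10 with single arrays left out, with the positive end coming when +DEX replicate 1 was left out. The cause of these turns was not tested. The scaling itself moved the median difference of all probe sets, which was −0.10 with arrays at the same median, 0.0076 with quantile normalization and 0.090 in the deposited values. Probe sets called lower numbered 27, against 0 when eBayes had no variance trend, 0 when values were floored at a log2 of 5, and 0 to 46 with single arrays left out. Same-numbered arrays had deviations from their group means that correlated by −0.0051 to 0.025, so the numbers were not taken as pairs. With the replicate block 33 probe sets were lower and 0 of the 8 genes were called. The values without −DEX replicate 1 for the 9 ATG8 genes, and the correlations under other scalings or without single arrays, were chosen after seeing the data.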

Other observations

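The +DEX arrays lay closer together than the −DEX arrays for all 8 ATG genes, with the lower SD over 3 arrays in each. ATG3 had an SD of 0.10 with DEX and 0.59 without, and ATG8E had 0.17 with DEX and 0.59 without. The same direction held for 68.7% of the probe sets detected on all 6 arrays. Without −DEX replicate 1, the array that stood apart, it held for 6 of the 8 genes, the exceptions being ATG8C and ATG8G. It then held for 53.3% of those probe sets. The −DEX SD is then taken over fewer arrays than the 3 +DEX arrays. These counts therefore cannot be set directly against those over all 6 arrays. The comparison was chosen after the values were seen, and the difference in spread was not tested.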
